A study of Homo sapiens with 6 samples.

Results

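The 9 genes PLOD1, PLOD2, PLOD3, P4HA1, P4HA2, SERPINH1, LOX, LOXL2 and COLGALT1 encode enzymes and a chaperone that hydroxylate, glycosylate, fold and crosslink collagen. They were taken by gene symbol from the deposited table of read counts, which holds 31582 genes, and each symbol matched 1 row. All 9 were among the 16394 genes with enough reads to be tested. The human breast cancer line MDA-MB-231, which is established and lacks hormone receptors, was profiled by RNA sequencing after CALR knockdown and in controls. The 3 CALR knockdown libraries (replicates 1 to 3) came from MDA-MB-231-shCALR cells, which carry a short hairpin RNA against CALR, and the 3 control libraries from MDA-MB-231-NTC cells. Both lines were grown in the same serum-containing medium and collected before confluence, with no other treatment given in the labels. The labels give neither the hairpin sequence nor the number of clones or cultures, so p-values measure only the spread between these libraries, which may be technical.

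Collagen chains are modified in the endoplasmic reticulum (ER) before they fold into a triple helix. Prolyl 4-hydroxylase, built from an alpha subunit such as P4HA1 or P4HA2 and the beta subunit P4HB, hydroxylates proline and makes the helix stable. Lysyl hydroxylases (PLOD1 to PLOD3) hydroxylate lysine, and COLGALT1 adds galactose to hydroxylysine. SERPINH1, also called HSP47, is the collagen-specific chaperone that holds the folded helix. After secretion the copper-dependent lysyl oxidases LOX and LOXL2 oxidise lysine side chains, from which crosslinks form. PLOD2 acts on the telopeptides at the chain ends and directs which crosslinks are made. Several of these genes, among them P4HA1, P4HA2, PLOD2, LOX and LOXL2, are known targets of the hypoxia factor HIF-1, under which the series title also places calreticulin, the ER calcium-binding chaperone encoded by CALR.

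The promoters of the lysyl hydroxylases and of both prolyl hydroxylase alpha subunits are shown, because PLOD2 was lower while PLOD1 and PLOD3 were higher, and P4HA2 was higher while P4HA1 was near 0. They are printed, as RefSeq gives them on GRCh38.p14, from 250 bases before to 50 bases after an annotated start. Capitals mark ACGTG or GCGTG, the core letters of the hypoxia response element, read on either strand, so that CACGT and CACGC are the same letters on the other strand.
PLOD2, chr3:146161135-146161434 (minus strand): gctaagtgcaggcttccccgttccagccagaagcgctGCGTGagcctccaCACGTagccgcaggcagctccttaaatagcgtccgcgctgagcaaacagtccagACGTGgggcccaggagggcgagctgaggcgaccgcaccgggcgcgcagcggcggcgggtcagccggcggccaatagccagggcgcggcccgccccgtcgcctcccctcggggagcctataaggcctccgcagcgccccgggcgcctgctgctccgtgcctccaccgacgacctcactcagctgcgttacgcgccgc
PLOD1, chr1:11934467-11934766 (plus strand): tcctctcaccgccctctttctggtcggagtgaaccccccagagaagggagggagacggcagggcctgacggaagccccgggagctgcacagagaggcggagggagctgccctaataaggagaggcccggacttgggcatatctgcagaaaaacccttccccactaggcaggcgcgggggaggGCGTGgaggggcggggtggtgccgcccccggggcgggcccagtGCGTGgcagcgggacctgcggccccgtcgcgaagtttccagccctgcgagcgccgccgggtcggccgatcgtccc
PLOD3, chr7:101217532-101217831 (minus strand): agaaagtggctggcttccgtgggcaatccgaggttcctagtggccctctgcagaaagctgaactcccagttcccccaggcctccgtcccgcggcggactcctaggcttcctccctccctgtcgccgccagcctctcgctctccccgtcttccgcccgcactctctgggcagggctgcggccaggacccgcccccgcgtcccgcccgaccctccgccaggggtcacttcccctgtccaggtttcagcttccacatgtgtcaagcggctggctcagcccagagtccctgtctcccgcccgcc
P4HA1, chr10:73096817-73097116 (minus strand): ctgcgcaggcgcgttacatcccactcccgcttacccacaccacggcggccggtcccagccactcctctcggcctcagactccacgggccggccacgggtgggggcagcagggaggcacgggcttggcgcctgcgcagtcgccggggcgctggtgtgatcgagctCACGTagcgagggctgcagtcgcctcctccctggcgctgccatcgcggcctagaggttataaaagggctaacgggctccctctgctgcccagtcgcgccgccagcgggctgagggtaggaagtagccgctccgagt
P4HA2, chr5:132227042-132227341 (minus strand): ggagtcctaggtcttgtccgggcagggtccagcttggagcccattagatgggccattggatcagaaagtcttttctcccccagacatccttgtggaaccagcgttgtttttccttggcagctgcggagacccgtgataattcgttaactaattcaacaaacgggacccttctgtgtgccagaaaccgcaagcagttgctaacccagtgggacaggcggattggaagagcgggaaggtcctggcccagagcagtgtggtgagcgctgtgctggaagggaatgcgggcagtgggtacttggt
The core letters occurred 3 times in the PLOD2 window, 2 times in that of PLOD1, 0 times in that of PLOD3, 1 time in that of P4HA1 and 0 times in that of P4HA2. No matches overlapped in these windows. Of all 35116 promoter windows in the table, 48.4% held at least 1 match, 23.1% at least 2 and 10.1% at least 3. Promoter windows were found for 8 of the 9 genes. Among those not printed, 1 LOX window held 4 matches and its other windows 2 each, with LOX at a log2 fold change of 0.08. The COLGALT1 window held 2, and the SERPINH1 windows held 1 and 3. A relation between matches and fold changes was not tested. A match describes the letters only and says nothing of binding.

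Total counts per library lay between 37295097 and 42425310 in CALR knockdown and between 34639090 and 40732131 in controls. CALR itself was at 493, 66.4 and 110.1 CPM (counts scaled to a common library size with TMM factors) in knockdown replicates 1 to 3, against 1213, 979 and 926 CPM in the controls. Knockdown replicate 1 thus kept 47.5% of the control mean, replicate 2 6.39% and replicate 3 10.6%, a log2 fold change of −2.22 ± 0.64 (SE; edgeR adjusted p = 0.209). The line's mesenchymal markers VIM, CD44, EGFR, CAV1, AXL and S100A4 were all at a mean of at least 1 FPKM (the deposited level per length), with summed levels of 1370 to 1750 FPKM in knockdown and 1042 to 1175 FPKM in control libraries. VIM made up most of that sum, and EGFR was lower, at 7.48, 10.52 and 7.72 FPKM in knockdown, against 17.69, 15.06 and 17.18 FPKM in controls. Of 8 luminal markers, KRT8, KRT18, ERBB2 and GATA3 had a mean of at least 1 FPKM, with list sums of 149.5 to 189 FPKM in knockdown and 153 to 212 FPKM in control libraries, while ESR1 and PGR were at most 0.14 FPKM in each library. The part of these markers in the results was not tested. Summed FPKM of 11 fibroblast markers was 4.78 to 5.89 in knockdown and 5.17 to 6.30 in control libraries, that of 6 endothelial markers was 0.48 to 0.93 in knockdown and 0.53 to 0.86 in control libraries, and that of 5 blood markers was 0.18 to 0.48 in knockdown and 0.56 to 0.62 in control libraries.

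Of the 9 members, 0 passed edgeR's adjusted threshold of 0.05, as did 0% of all genes tested. The unadjusted p was below 0.05 for 5 members, beside 15.5% of all genes. Of these, 4 were higher in knockdown (8.17% of all genes) and 1 was lower (7.36%). The 4 were P4HA2, COLGALT1, PLOD1 and PLOD3, and the 1 lower was PLOD2. The median log2 fold change of the 9 was 0.53, beside a median of −0.00072 over all genes tested. It was 0.34 without knockdown replicate 1, 0.35 without knockdown replicate 3 and 0.35 with GC correction. PLOD2 was the 1 member whose knockdown and control libraries did not overlap in CPM. This was so for 22.5% of all genes, 11.2% on the lower side, as for PLOD2, and 11.3% on the higher side. In FPKM, PLOD3 was also apart, on the higher side, as were 7.37% of all genes, with 22.1% apart in either direction. The margin was small, with the lowest knockdown library at 43.76 FPKM and the highest control at 43.58 FPKM. The count of 5 members was 1 without knockdown replicate 1 (10.7% of all genes in that fit), 2 without knockdown replicate 3 (16.9%), 2 without control replicate 2 (8.48%) and 2 without control replicate 3 (7.23%). PLOD2 was among them each time. In bulk RNA, fewer cells of a kind and less RNA per cell cannot be told apart.

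**Figure D1:**
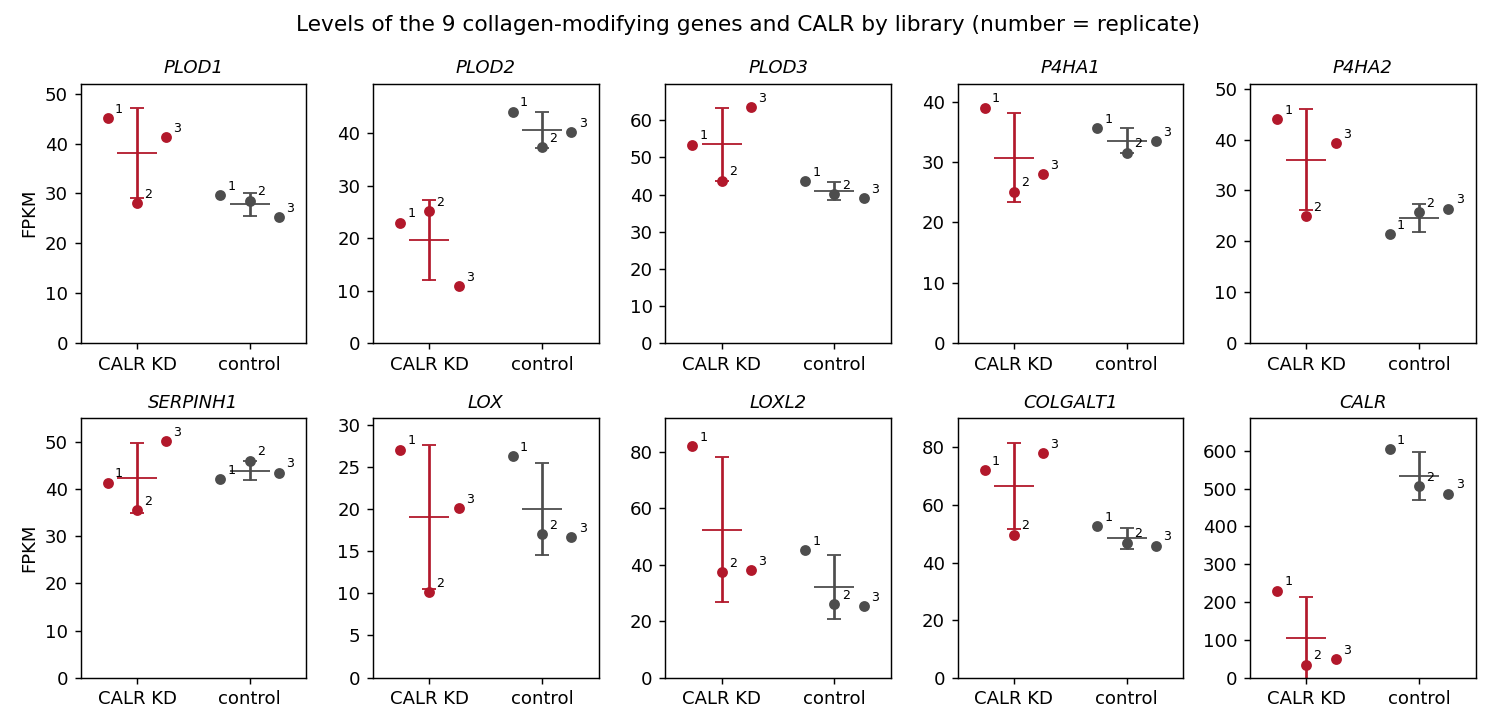
Deposited FPKM (a level scaled by gene length and library size) of the 9 members and of CALR in the 3 CALR knockdown and 3 control libraries. Points are libraries numbered by replicate, and bars are the mean ± SD; only PLOD2 and CALR have knockdown points that all lie below the controls.

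Per length, all 9 members were well expressed. In control libraries COLGALT1 was at 48.4 ± 3.63 FPKM, SERPINH1 at 43.9 ± 1.99, PLOD3 at 40.9 ± 2.40, PLOD2 at 40.6 ± 3.44, P4HA1 at 33.5 ± 2.05, LOXL2 at 32.2 ± 11.2, PLOD1 at 27.8 ± 2.30, P4HA2 at 24.5 ± 2.72 and LOX at 20.0 ± 5.44 (mean ± SD, n = 3). Of the 8 neighbouring pairs in this order, 7 overlapped between libraries and did not differ beyond their spread. The exception was PLOD2 above P4HA1. In knockdown libraries COLGALT1 was again the first, at 66.6 ± 14.97 FPKM, and LOX again the last, at 19.1 ± 8.51. PLOD2 had rank 4 in the controls and rank 8 in knockdown, at 19.7 ± 7.69 FPKM.

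The lysyl hydroxylases differed in direction. PLOD2 (ENSG00000152952.11, chromosome 3, 146069440 to 146163653 of GRCh38, minus strand) was at 115.1, 115.0 and 57.6 CPM in CALR knockdown replicates 1 to 3, against 207, 168 and 179 CPM in control replicates 1 to 3. All 3 knockdown libraries lay below all 3 controls, with replicate 3 the lowest at 31.2% of the control mean and replicates 1 and 2 both at 62.3%. The log2 fold change was −0.94 ± 0.26 (SE; unadjusted p = 0.0059, adjusted p = 0.200 in edgeR's quasi-likelihood test), and −0.53 ± 0.23 once each library's GC trend was removed. With that trend removed, PLOD2 was at −0.01, −0.87 and −0.89 relative to the control mean on the log2 scale in knockdown replicates 1 to 3, and CALR at −1.24, −3.88 and −3.55. A relation between the levels of CALR and PLOD2 was not tested, with 3 knockdown libraries.

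PLOD1 and PLOD3 were higher on average. PLOD1 (chromosome 1, 11934205 to 11975538, plus strand), whose loss in humans causes the kyphoscoliotic form of Ehlers-Danlos syndrome, was at 149.6, 84.8 and 145 CPM in knockdown, against 91.8, 85.4 and 74.1 CPM in controls. PLOD3 (chromosome 7, 101205977 to 101218420, minus strand), which can also glycosylate collagen, was at 176, 132 and 221 CPM in knockdown, against 134, 119 and 114 CPM in controls. For both genes knockdown replicates 1 and 3 were above all controls while replicate 2 lay among them. The log2 fold changes were 0.59 ± 0.23 for PLOD1 and 0.53 ± 0.21 for PLOD3, with unadjusted p-values of 0.030 and 0.031 and adjusted p-values of 0.278 and 0.280 from edgeR. Without knockdown replicate 3, PLOD3 was at 0.35. Exon bases of PLOD3 overlap genes of the other strand by 7.56%, and the strand setting of the counting is not given in the sources used here. Such overlap is 6.45% for P4HA2, 3.12% for LOXL2, 2.49% for LOX and 1.52% for P4HA1. For LOXL2, 2.10% also overlap on the same strand.

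COLGALT1 (chromosome 19, 17555594 to 17583162, plus strand), whose enzyme uses the hydroxylysine that the PLOD enzymes make, resembled PLOD1 and PLOD3. It was at 302, 189.5 and 345 CPM in knockdown, against 205, 176 and 169.5 CPM in controls. Replicates 1 and 3 were again above all controls and replicate 2 among them (log2 fold change 0.60 ± 0.23; unadjusted p = 0.027, adjusted p = 0.272 from edgeR).

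Within each library the summed FPKM of the 3 PLOD genes was close, at 111 ± 12.8 in knockdown, against 109 ± 7.07 in controls (SD, n = 3 each; exact two-sided permutation p = 0.9). Its makeup differed. PLOD2 formed 18.9%, 25.9% and 9.40% of the sum in knockdown replicates 1 to 3, against 37.6%, 35.2% and 38.5% in the controls. The mean difference was −19.0 percentage points, with every knockdown library below every control. The exact two-sided permutation p was 0.1, the smallest that 3 against 3 libraries allow, and it remained 0.1 when adjusted over the 3 shares tested.

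**Figure D2:**
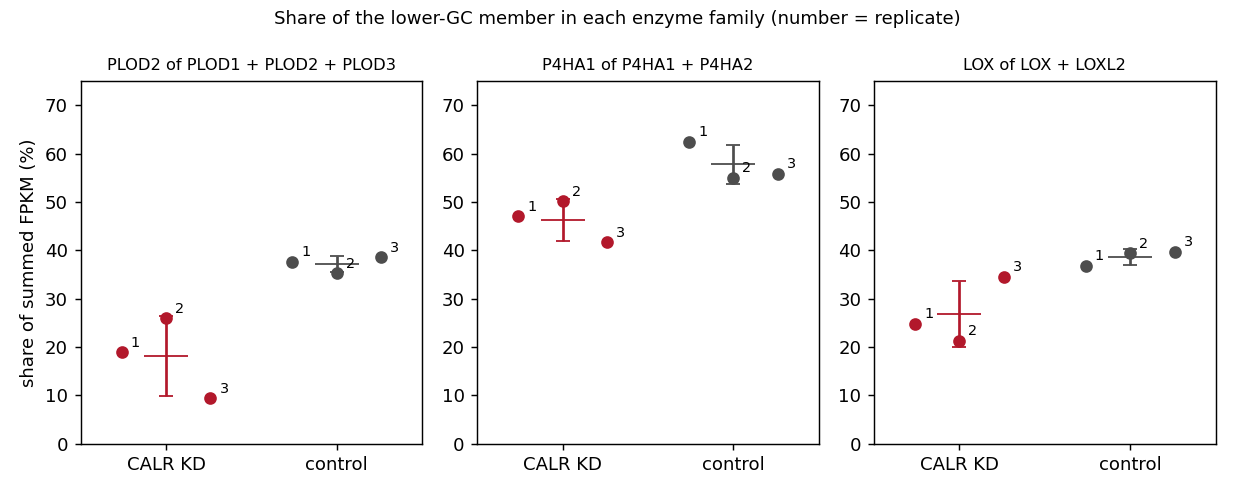
Share of summed FPKM (%) taken by PLOD2 among PLOD1, PLOD2 and PLOD3, by P4HA1 among P4HA1 and P4HA2, and by LOX among LOX and LOXL2. Points are libraries numbered by replicate, bars the mean ± SD; in each panel the 3 knockdown points lie below the 3 control points.

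The prolyl hydroxylase alpha subunits also differed in their balance. P4HA2 (chromosome 5, 132191838 to 132295315, minus strand) was at 185, 95.3 and 174 CPM in knockdown, against 83.9, 97.2 and 98.1 CPM in controls. Knockdown replicates 1 and 3 were well above all controls, and replicate 2 was among them (log2 fold change 0.70 ± 0.25; unadjusted p = 0.020, adjusted p = 0.251 from edgeR). P4HA1 (chromosome 10, 73007217 to 73096974, minus strand) was at 129, 75.5 and 97.8 CPM in knockdown, against 109.9, 93.8 and 97.7 CPM in controls. Its knockdown libraries lay above, below and among the controls, and the log2 fold change was 0.0039 ± 0.21 (edgeR adjusted p = 0.994). With other scalings P4HA1 was at −0.15 to 0.02, and after GC correction at 0.32 ± 0.27. P4HA1 formed 47.0%, 50.1% and 41.6% of the sum of both subunits in knockdown, against 62.4%, 55.04% and 55.8% in controls, a difference of −11.5 percentage points (exact permutation p = 0.1, the smallest possible). Per length, P4HA1 was above P4HA2 in each control, and below it in knockdown replicates 1 and 3.

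The chaperone SERPINH1 (chromosome 11, 75562056 to 75572783, plus strand) was at 227, 178 and 291 CPM in knockdown, against 216, 228 and 212 CPM in controls. The knockdown libraries lay on both sides of the controls, with a log2 fold change of 0.09 ± 0.20 (edgeR adjusted p = 0.844) that was −0.09 to 0.25 with 1 library left out.

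The lysyl oxidases varied most between libraries of a group. LOXL2 was at 329, 136 and 161 CPM in knockdown, against 169, 94.2 and 89.7 CPM in controls. Knockdown replicate 1 was far above all others and control replicate 1 was above knockdown replicates 2 and 3, so the groups overlapped. The log2 fold change was 0.83 ± 0.37 (unadjusted p = 0.0501, adjusted p = 0.322 from edgeR), and it was 0.34 without knockdown replicate 1. LOX (chromosome 5, 122063195 to 122078360, minus strand) was at 156, 53.2 and 122 CPM in knockdown, against 141, 88.1 and 84.9 CPM in controls. It was highest in replicate 1 of both groups and lowest in knockdown replicate 2 (log2 fold change 0.08 ± 0.37, edgeR adjusted p = 0.934, and −0.25 without knockdown replicate 1). LOX formed 24.8%, 21.3% and 34.5% of the LOX and LOXL2 sum in knockdown, against 36.8%, 39.4% and 39.7% in controls, a difference of −11.8 percentage points (exact permutation p = 0.1, the smallest possible).

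**Figure D3:**
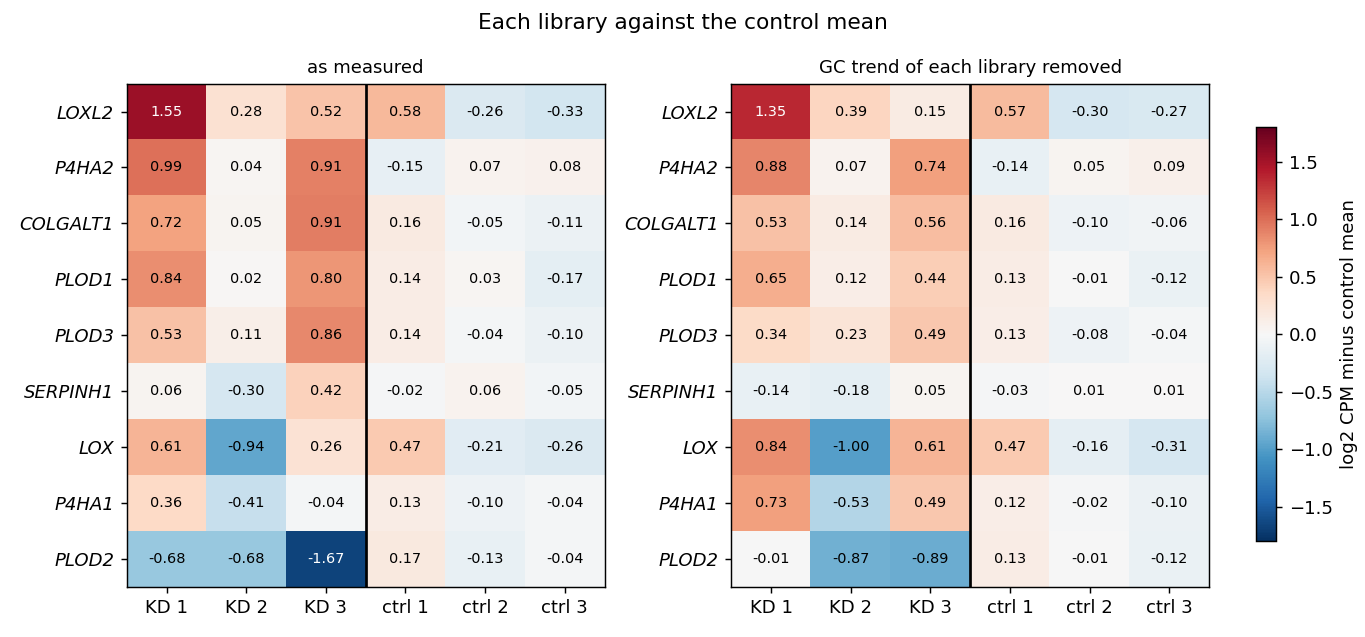
Log2 CPM of each member in each library minus the mean of the 3 controls, as measured (left) and with each library's GC trend removed (right); red is above and blue below the control mean. As measured, knockdown replicates 1 and 3 are red for most members and replicate 2 is pale for most but blue for LOX at −0.94, while PLOD2 is blue in all 3; with the trend removed, PLOD2 is at −0.01 in replicate 1.

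Across the members, the knockdown libraries did not act alike. The median of the 9 was 0.61, 0.02 and 0.52 above the control mean on the log2 scale in knockdown replicates 1 to 3, against 0.14, −0.05 and −0.10 in control replicates 1 to 3. For 8 of the 9 members replicate 2 was the lowest of the knockdown libraries in CPM, the exception being PLOD2. How many of all genes were lowest there was not counted. Among genes of 55% to 60% GC, the median GC trend was 0.12, −0.16 and 0.28 in knockdown replicates 1 to 3. With each library's trend removed, the median of the members was 0.65, 0.07 and 0.49. Replicate 2 also had the least CALR, and a relation to CALR or to the trend was not tested. Without knockdown replicate 2, 5 members passed edgeR's adjusted threshold, as did 2604 of 16783 genes, and 35.6% of all genes had an unadjusted p under 0.05. These were P4HA2 (0.95, adjusted p = 0.015), PLOD1 (0.82, 0.017), COLGALT1 (0.82, 0.017), PLOD3 (0.70, 0.024) and PLOD2 (−1.09, 0.036).

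The libraries differed in how counts followed GC content, and the members span that range. PLOD2 has transcripts of 36.1% GC, P4HA1 40.2% and LOX 42.4%, against 50.9% for P4HA2 and 57.8% to 59.96% for COLGALT1, PLOD1, LOXL2, SERPINH1 and PLOD3. The median over tested genes was 48.8%. Among the 1679 tested genes of 35% to 40% GC the median log2 fold change was −0.28, and among the 2479 of 55% to 60% it was 0.18. At the GC content of PLOD2 the fitted trend alone came to −0.42 (knockdown minus control), at that of P4HA1 to −0.26, and at those of PLOD1 and PLOD3 to 0.15 each. These are group means, and knockdown replicate 2 ran the other way from replicates 1 and 3. Among genes of 35% to 40% GC the median trend was −0.32, 0.32 and −0.47 in knockdown replicates 1 to 3, against 0.19, 0.07 and 0.24 in the controls.

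With each library's GC trend entered into the edgeR fit, PLOD2 was at −0.53 ± 0.23 (unadjusted p = 0.050, adjusted p = 0.274), P4HA2 at 0.60 ± 0.20, COLGALT1 at 0.42 ± 0.15, PLOD1 at 0.42 ± 0.16, PLOD3 at 0.35 ± 0.13 and LOXL2 at 0.67 ± 0.34. The same 5 members had an unadjusted p under 0.05, beside 18.3% of all genes in this fit, and 0 passed the adjusted threshold. The GC-adjusted PLOD2 was at −0.01, −0.87 and −0.89 in knockdown replicates 1 to 3, against 0.13, −0.01 and −0.12 in the controls. Knockdown replicate 1 thus lay within the control range. As measured, knockdown replicates 1 and 2 kept 47.5% and 6.39% of CALR and were both at 62.3% of the control mean for PLOD2. A relation to CALR was not tested. PLOD3 was then the 1 member whose groups did not overlap, at 0.34, 0.23 and 0.49 in knockdown, against 0.13, −0.08 and −0.04 in controls. Of all genes with a GC value, 25% were apart on this scale, 12.7% on the higher side. On GC-corrected FPKM, chosen after seeing the data, PLOD2 still formed a smaller share of the PLOD sum (20.2% in knockdown against 32.6% in controls, exact permutation p = 0.1). The P4HA1 share was 49.3% in knockdown against 54.9% in controls (exact p = 0.2) and the LOX share 29.9% in knockdown against 36.0% in controls (exact p = 0.5), and both then overlapped between groups.

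**Figure D4:**
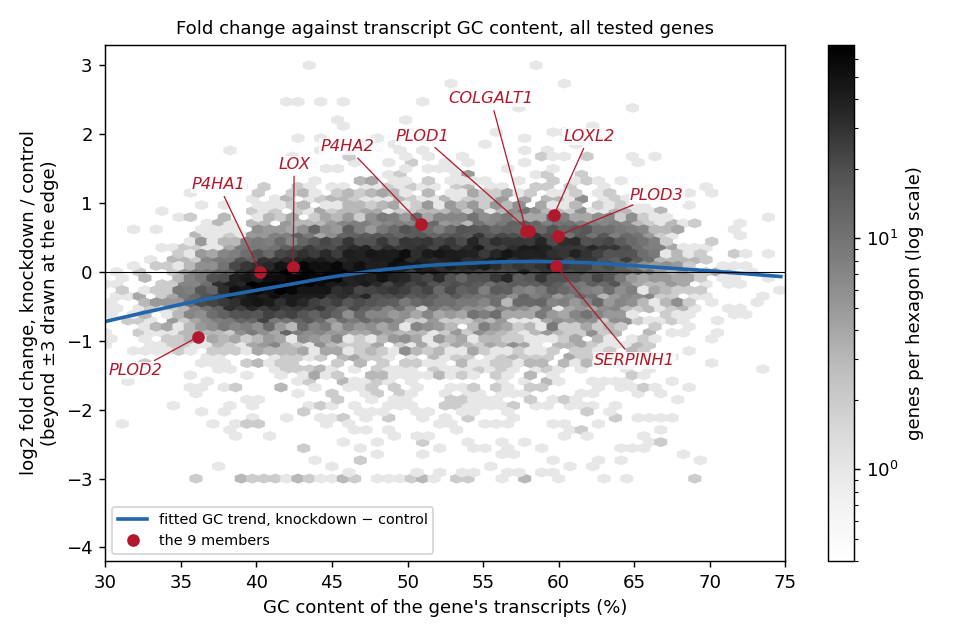
Log2 fold change (CALR knockdown over control) against the GC content of each gene's transcripts (%) for all tested genes with a GC value (grey hexagons, darker with more genes), with the fitted GC trend (blue line) and the 9 members (red). PLOD2 lies at the low-GC end, where the trend is negative, and below it; P4HA2 lies above the trend.

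**Figure D5:**
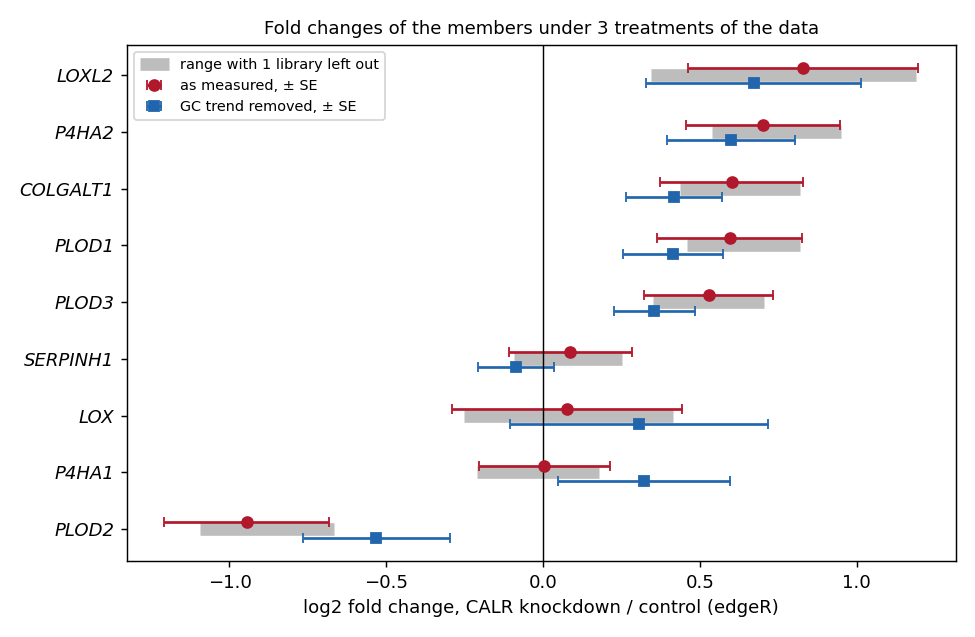
Log2 fold changes of the 9 members from edgeR as measured (red circles) and with the GC trend removed (blue squares), both ± SE, with the range over fits that leave out 1 library (grey bars). PLOD2 alone is below 0 in all of these, and LOXL2 has the widest grey bar among the members above 0.

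Other genes that act on the same residues were described from lists chosen with earlier results of these data known. Among 8 further lysyl and prolyl hydroxylase genes tested, 4 were higher and 1 was lower by the unadjusted p (8.17% and 7.36% of all genes). Their median log2 fold change was 0.43. The prolyl 3-hydroxylase P3H1 was at 128 ± 20.2 CPM in knockdown, against 85.6 ± 4.89 CPM in controls (SD, n = 3 each; 0.58 ± 0.17), with groups apart. Its partner CRTAP was at 445 ± 112 CPM in knockdown, against 269.8 ± 56.2 CPM in controls (0.72 ± 0.23), with groups that overlapped. P3H4, which forms a complex with lysyl hydroxylase 1 and P3H3, was lower in all 3 knockdown libraries, at 10.6 ± 2.998 CPM in knockdown, against 15.9 ± 0.484 CPM in controls (−0.59 ± 0.24). P4HA3 was near the floor, at 1.54 CPM in knockdown, against 0.684 CPM in controls. P4HB, named after its values were seen as the subunit that P4HA1 and P4HA2 share, was at 1110 ± 337 CPM in knockdown, against 746 ± 39.9 CPM in controls (0.57 ± 0.23, and 0.37 without knockdown replicate 3). None of these passed edgeR's adjusted threshold. Without control replicate 3 the count at an unadjusted p was 1 higher and 0 lower, beside 7.23% of all genes in either direction.

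Collagen folding and export genes went both ways, with 10 of 17 tested above 0 and 7 below (median 0.02). With an unadjusted p below 0.05, 1 was higher and 1 lower (8.17% and 7.36% of all genes). Without knockdown replicate 2 the count was 3 higher and 5 lower, beside 35.6% of all genes in either direction. It was 3 higher and 0 lower without knockdown replicate 1 (10.7% of all genes), and 0 of either without control replicate 1 (11.1%). Without knockdown replicate 3, control replicate 2 or control replicate 3, 0 were higher and 1 was lower (16.9%, 8.48% and 7.23% of all genes in either direction). The prolyl isomerase PPIB, a partner of P3H1 and CRTAP, was at 637 ± 241 CPM in knockdown, against 396 ± 16.0 CPM in controls (0.69 ± 0.26, and 0.38 without knockdown replicate 3). FKBP10, the isomerase that works with PLOD2 in telopeptide lysine hydroxylation, was low in both groups, at 0.200, 0.0248 and 1.40 CPM in knockdown replicates 1 to 3, against 8.57, 1.95 and 2.02 CPM in the controls. All 3 knockdown libraries were below the controls (−2.95 ± 1.03, edgeR adjusted p = 0.249), and the value was −5.21 without knockdown replicate 3 and −1.88 without control replicate 1. It thus rested on 7, 1 and 52 reads in knockdown, against 324, 71 and 88 in controls.

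Among 11 tested genes of the other lysyl oxidases and of propeptide removal, 3 were higher and 0 lower with an unadjusted p below 0.05. Of all genes, 8.17% were higher and 7.36% lower by that p. The median of the list was 0.18. That median was 0.036 without control replicate 2 and 0.30 without knockdown replicate 1, and over the other settings it was 0.028 (limma-voom and the replicate block) to 0.44 (no low-count filter). BMP1, the protease that removes the C-propeptide of fibrillar collagens and also activates the LOX precursor, was at 66.1 ± 18.2 CPM in knockdown, against 33.0 ± 2.99 CPM in controls, with groups apart (1.004 ± 0.22; unadjusted p = 0.0014, adjusted p = 0.159 from edgeR). ATOX1, a copper chaperone, was at 105 ± 21.4 CPM in knockdown, against 70.7 ± 4.84 CPM in controls (0.57 ± 0.18). The N-propeptide protease ADAMTS3 was at 4.80 ± 2.71 CPM in knockdown, against 2.09 ± 0.138 CPM in controls (1.201 ± 0.40, and 0.66 without knockdown replicate 2). LOXL1, LOXL3 and LOXL4 together were at 4.66 to 6.96 FPKM in knockdown and 5.01 to 7.42 FPKM in control libraries, well below LOX and LOXL2.

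The collagen chains that these enzymes modify were mixed. Of 12 tested, 4 were higher and 2 lower with an unadjusted p below 0.05 (median 0.53), beside 8.17% and 7.36% of all genes. COL6A3 (1.48 ± 0.31), COL6A1 (0.77 ± 0.20) and COL18A1 (0.64 ± 0.20) were higher in all 3 knockdown libraries. Of all genes, 11.3% were apart in CPM on that side. COL6A3 was near the floor, with 94, 112 and 171 reads in knockdown replicates 1 to 3, against 43, 45 and 53 in the controls. COL1A1, at 6.28 ± 2.42 CPM in knockdown, against 11.8 ± 1.45 CPM in controls, was lower in all 3 knockdown libraries (−0.91 ± 0.30). COL1A2 and COL3A1 had too few reads to be tested. With 1 library left out the counts were 2 to 7 higher and 1 to 2 lower, beside 7.23% to 35.6% of all genes in either direction. There were 7 higher without control replicate 1 (11.1% of all genes). Without control replicate 2 or 3 there were 2 higher (8.48% and 7.23%).

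Prolyl and lysyl hydroxylases need iron, ascorbate and 2-oxoglutarate. Of 11 tested genes of their uptake, storage, production or use, 5 were higher and 0 lower with an unadjusted p below 0.05 (8.17% and 7.36% of all genes). The median was 0.54. The ascorbate transporter SLC23A2 was at −0.27 ± 0.20 and the transferrin receptor TFRC at 0.05 ± 0.20, both named after their values were seen. Whether cofactor supply changed was not tested. The count was 3 higher without knockdown replicate 3, control replicate 1 or control replicate 3 (16.9%, 11.1% and 7.23% of all genes in either direction). The median was 0.24 with log2(FPKM + 1) and 0.27 with log2(FPKM + 0.1). IDH1, which makes 2-oxoglutarate in the cytosol, was at 123 ± 11.9 CPM in knockdown, against 82.4 ± 10.0 CPM in controls, with groups apart (0.58 ± 0.16, and 0.70 ± 0.14 after GC correction). OGDH, which consumes 2-oxoglutarate, was also higher in all 3 (0.54 ± 0.19). The ferritin light chain FTL was at 6368 ± 2994 CPM in knockdown, against 3208 ± 607 CPM in controls (0.99 ± 0.33, and 0.59 without knockdown replicate 3), and the groups overlapped. SLC2A1, a transporter that also takes up oxidised ascorbate, was at 338 ± 113 CPM in knockdown, against 195 ± 9.04 CPM in controls (0.79 ± 0.25). None passed edgeR's adjusted threshold.

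Of 16 other HIF-1 targets, 4 were higher and 0 lower with an unadjusted p below 0.05 (8.17% and 7.36% of all genes). The median was 0.17. The 4 were ALDOA (0.77 ± 0.22), SLC2A1, PGK1 (0.71 ± 0.29, and 0.40 without knockdown replicate 1) and EGLN3 (0.79 ± 0.34, and 0.36 without it). Of the 16, 10 were above 0 and 6 below. CA9, named after its values were seen, was at −1.72 ± 0.87. It was near the floor, with 22, 0 and 6 reads in knockdown replicates 1 to 3, against 36, 37 and 26 in the controls. With GC correction 4 of the list were higher and 1 was lower, beside 18.3% of all genes in either direction. The list's median was 0.77, −0.22 and 0.13 above the control mean in knockdown replicates 1 to 3, against −0.05, 0.07 and 0.04 in the controls. Left without knockdown replicate 1, the list had a fitted median of −0.17, with 1 higher and 1 lower. Without knockdown replicate 2 the median was 0.48, with 7 higher and 0 lower. Of all genes, 10.7% and 35.6% had an unadjusted p under 0.05 in these fits. The HIF-1 targets among the members did not share a direction, with PLOD2 at −0.94, P4HA1 at 0.0039, LOX at 0.08, P4HA2 at 0.70 and LOXL2 at 0.83.

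The genes whose 6 log2 CPM deviations came closest to those of a member, among those with a mean log2 CPM of at least 4, differed from member to member. For PLOD2 they were PTBP3 and PABPC1L, at root mean square differences of 0.19 each, the widest among the members. For PLOD1 they were AKR7A2 and MRPL12 (0.038 and 0.042), and for PLOD3 they were LRP10 and STK40 (0.033 and 0.037). For P4HA2 they were SLC2A1 and AP1M2 (0.070 and 0.078), for P4HA1 FKBP5 and GNB5 (0.054 and 0.056), and for COLGALT1 GAA and CAPNS1 (0.049 and 0.053). For SERPINH1 they were MED18 and DUSP16 (0.015 and 0.029), for LOX IMPA2 and IGFBP3 (0.11 and 0.12), and for LOXL2 IQGAP3 and CELSR1 (0.061 and 0.11). These compare 6 libraries that share depth and GC trends and describe likeness only.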

How the data were processed

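Polyadenylated RNA of 6 libraries was sequenced after stranded library preparation, per the labels' protocols. The authors deposited whole-number read counts per gene and FPKM values rounded to 2 decimals. FastQC 0.9.5, TopHat2 and GRCh38 are named in the submitters' processing notes; the counting program, its strand setting and its annotation were not stated there, and reads of overlapping genes are uncertain. Genes were filtered with filterByExpr, scaled with TMM factors and tested in edgeR 4.0.16 by quasi-likelihood (R 4.3.3), knockdown against control, with Benjamini-Hochberg adjustment over 16394 genes. SE is the absolute log2 fold change over the square root of F. Shares had exact two-sided permutation tests.

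Transcript GC came from GENCODE 29, matched without version for 30871 of 31582 genes, and a lowess trend (span 0.3) per library entered as an offset. That fit tested 16294 genes. The fits were also run on simulated data with equal spread in both groups, which does not test the uneven spread seen here. Knockdown libraries differed among themselves by a chi-square of 105 to 199 per gene, and controls by 11.8 to 48.1. Members and lists were chosen with earlier results of these data known. Named list genes were at most the 4 smallest unadjusted p-values under 0.05 per list, and likeness named 2 genes per member. Alternatives were other scalings, DESeq2 1.42.0, limma-voom 3.58.1, other filters, left-out libraries, a replicate block, GC correction and limma on log2 FPKM with a pseudocount of 1 or 0.1, keeping genes that reached 1 FPKM in 3 libraries. Libraries of 1 group differed by a chi-square of 11.8 to 199 per gene, so none was counted as a repeat.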

Additional observations from a re-analysis of the deposited data

How the results depend on the processing

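PLOD2 was negative in all 18 fits and had an unadjusted p under 0.05 in each, at 0.0499 in edgeR with GC correction. Of all genes, 7.23% to 35.6% were under 0.05 in a fit. PLOD1, PLOD3, P4HA2, COLGALT1 and LOXL2 were positive in all 18. The fits reuse the same 6 libraries, and how many of all genes kept a call or a sign in every fit was not counted. The number of genes past the adjusted threshold, 0 with edgeR as described (2546 at an unadjusted p under 0.05), was 530 with DESeq2, 988 with no low-count filter, 4 with GC correction, 16 with GC correction and replicate block, and 0 to 2604 with 1 library left out (2604 without knockdown replicate 2, 138 without knockdown replicate 3). Members past it were 1 with DESeq2 (PLOD2, adjusted p = 0.047), 3 with no filter (PLOD2, P4HA2 and LOXL2) and 0 to 5 with 1 library left out. With no filter the SE was 0.210 for LOXL2 and 0.212 for LOX, against 0.366 and 0.367 with edgeR as described. The calls of the no-filter fit thus rest on a smaller spread for these variable genes. Members at an unadjusted p under 0.05 were 1 to 6 with 1 library left out (7.23% to 35.6% of all genes), 2 with log2(FPKM + 1) (16.1% of all genes) and 1 with log2(FPKM + 0.1) (15.7%). CALR was at −2.19 with no filter and past the threshold, and at −3.55 to −1.78 with 1 library left out (−3.55 without knockdown replicate 1). The cause was not tested. Library size alone moved the median of all genes to −0.13.

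The members near 0 changed sign. P4HA1 was at −0.14 with library size alone, −0.030 with limma-voom, −0.027 with the replicate block, −0.037 when each of the 6 libraries had to reach 1 CPM, −0.15 with either FPKM pseudocount, and −0.21 to 0.18 with 1 library left out. LOX was at −0.083 with library size alone, −0.025 with limma-voom, −0.017 with the replicate block, −0.13 with log2(FPKM + 1), −0.14 with log2(FPKM + 0.1), and −0.25 to 0.41 with 1 library left out. SERPINH1 was at −0.067 with library size alone, −0.085 with GC correction, −0.088 with GC correction and replicate block, −0.064 with log2(FPKM + 1), −0.066 with log2(FPKM + 0.1), and −0.093 to 0.25 with 1 library left out. The cause was not tested.

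With 1 library left out the PLOD2 share differed by −23.0 to −14.7 percentage points, that of P4HA1 by −13.5 to −9.19 and that of LOX by −15.6 to −8.99. Whether equal replicate numbers pair the libraries is not given in the labels. The correlations of same-numbered deviations were 0.20, −0.12 and −0.22, which cannot decide it with 3 libraries per group. With a replicate block LOXL2 was at 0.78 ± 0.20, against 0.83 ± 0.37 without it. With the replicate block 0 genes passed the adjusted threshold and 6 members, LOXL2 being added, had an unadjusted p under 0.05, beside 13.5% of all genes.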
